A study of Mus musculus with 6 samples.

Results

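Tyms, Mthfd1, Shmt2, Cth and Ahcy code for enzymes of folate and one-carbon metabolism, and their signals were followed here in mouse kidney after antimalarial drugs that include antifolates. All probes that the array platform names for these 5 genes alone were taken, which gave 8 probes (1 each for Tyms, Shmt2 and Cth, 2 for Mthfd1 and 3 for Ahcy) among 15114 probes of single genes and 5 of 9107 genes in all. The rule takes every probe of the genes whatever its measured values.

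Male Swiss albino mice of 8 to 10 weeks, 4 per group, received amodiaquine (120 mg/kg), SP (sulfadoxine, spelled Sulfodoxine in the labels, at 300 mg/kg followed by pyrimethamine at 15 mg/kg), amodiaquine with SP at the same doses, or the vehicle DMSO. Kidneys were taken 24 h after the drug, and 25 ug of total RNA per sample was labelled with Cy3 or Cy5. A treated group was hybridised against the vehicle group on each of 6 two-colour arrays. Every treatment had 2 arrays with exchanged dyes, where the labels place the treated RNA in Cy5 for replicate 1 and in Cy3 for replicate 2. Nothing says whether the arrays of a pair held RNA of different mice, so p-values measure only the spread between these files. Amodiaquine is a 4-aminoquinoline and SP is an antifolate pair.

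Folate carries single carbon units in the cell. Thymidylate synthase, made from Tyms, uses them to make the thymidine nucleotide of DNA. Mthfd1 interconverts the carbon-bearing forms of folate in the cytosol, Shmt2 takes the carbon unit from serine in mitochondria, Ahcy clears the S-adenosylhomocysteine left by methylation, and Cth makes cysteine from cystathionine. Proliferating cells are known for high thymidylate synthase, while the kidney tubule is a known site of serine, glycine and homocysteine metabolism.

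After the spot grid was corrected, 5 of the 8 probes were above background in both dyes in at least 1 file: Tyms, the first Mthfd1 probe, Shmt2, Cth and the third Ahcy probe. "Above background" here means a signal-to-noise ratio of at least 2 in each dye over a recorded local background. In the 19 such readings with a settled grid, the log2 ratio of Cy5 over Cy3 ran from -0.69 to 1.11, and 1 reading, of Tyms in amodiaquine replicate 2, was 2-fold or more from equal. Without the need for a settled grid, 2 of 21 corrected readings above background were that far from equal. Corrected readings with a dye not above background also reached 2-fold: Tyms in SP replicate 2, Shmt2 in amodiaquine+SP replicate 2 and Cth in amodiaquine replicate 2. At the positions as deposited, with no filter, 13 of the 48 readings of the 8 probes were 2-fold or more from equal. Of these, 11 were among the 30 readings in blocks out of register and 2 among the 18 in register. The share of all spots past 2-fold at the deposited positions was not computed, so these counts are not a result about the member genes. The filter also differs, so the count as deposited cannot be set directly against that of the 19 readings. For some probes the 19 include both files of a repeated scan. Under the fitted model no member probe was called for any treatment. For SP and amodiaquine+SP that fit could not measure a drug effect, because each was 1 scan entered 2 times with opposite coding.

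The files set limits on every value below, and the gene names rest on an inferred order of blocks. For SP, and likewise for amodiaquine+SP, both files came from a single scan on which the grid had been laid 2 times: 28.2% to 41.9% of the foreground values of replicate 2 recurred in replicate 1 for the same dye, against 0.0911% and 0.122% in the amodiaquine pair. The 6 files therefore held 4 distinct scans. A repeated scan carries opposite labels in its 2 files, so the direction of its ratios is not settled, and SP and amodiaquine+SP values are given as Cy5 over Cy3. Of 48 blocks per file, between 2 (amodiaquine+SP replicate 2) and 36 (SP replicate 1) were in register in both dyes. Among markers of kidney cells, 2 of 8 proximal tubule probes (Miox and Napsa) and 2 of 3 thick ascending limb probes (Umod and Ppp1r1a) were above background in at least 2 of 3 scans, against 7.81% of all named probes. None of 8 endothelial, 5 glomerular and 4 leukocyte probes was, nor any of 5 distal tubule and collecting duct probes, whereas 1 of 3 hepatocyte probes (Apoa1) was.

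A displaced grid reads a neighbouring spot under the gene's name. The displacement was estimated per block, dye and file from the rank correlation of spot brightness with the other scans. No ratio was used, and each member was then read again at the position this gave. The reference position was the commonest among 8 dye images of the block, which is not a known grid position. Of the 48 readings of the 8 probes, 18 lay in blocks in register, with 7 of 8 probes in register in amodiaquine replicate 2 and 0 of 8 in amodiaquine+SP replicate 2. Cth, in block 2, was in register in 5 of 6 files, and Tyms, in block 16, in 1. The repeated scans gave a check that did not use the estimate. For the 5 bright probes in both dyes of these scans, 2 of 20 foreground values were identical between the 2 files at the deposited positions and 16 of 20 after the positions were read again. The dim probes were left out of this count, and most of their corrected values differed between the 2 files. For the first Ahcy probe, Cy3 was 1140 and 1275 in the SP files. Identical values bear on the offset between the 2 files of a scan, not on which gene the spot holds.

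**Figure D1:**
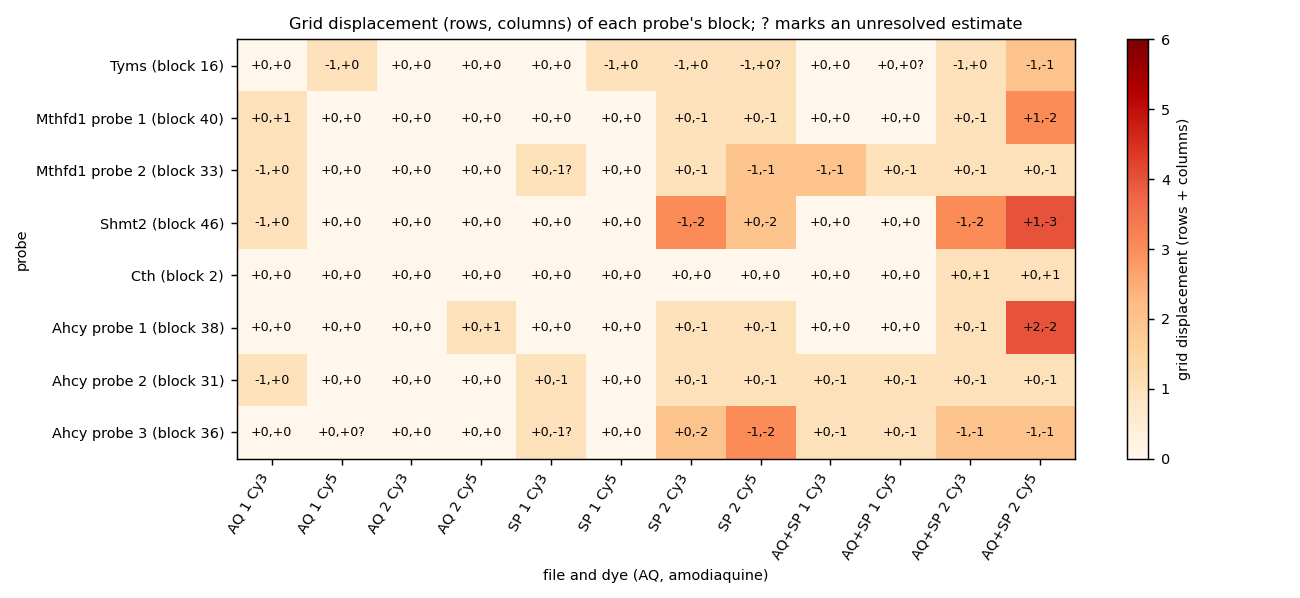
Grid displacement in rows and columns for the block of each probe (rows of the plot) in each file and dye (columns of the plot), coloured by the sum of rows and columns. A question mark is an estimate with a rank correlation under 0.5 or a margin under 0.1 over the next position, and the second files of SP and amodiaquine+SP are displaced for nearly every probe.

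Tyms, the thymidylate synthase gene, read differently at the deposited and the corrected position in 4 of 6 files. At the positions as deposited its Cy3 foreground was 23905 and 9260 in amodiaquine replicates 1 and 2, 26473 and 1227 in the SP files, and 23653 and 1023 in the amodiaquine+SP files. Its Cy5 foreground was 1098 and 56104, then 686.4 and 1675, then 8423 and 1422. Each low value stood near the local background, as with a Cy5 signal-to-noise ratio of 0.174 in amodiaquine replicate 1 and 0.263 in SP replicate 1, beside Cy3 ratios of 34.2 and 24.8 at the same 2 positions.

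In both of those files the Cy5 grid of block 16 was displaced by 1 row while the Cy3 grid was not. The ratio as deposited therefore set Cy3 of the Tyms spot against Cy5 of its neighbour, and the rank correlation between the dyes over the block was 0.0789 and 0.0589. Read 1 row off, Tyms Cy5 was 46318 in amodiaquine replicate 1 and 28775 in SP replicate 1, with signal-to-noise ratios of 16.3 and 34.0. The rank correlation between the dyes then rose to 0.565 and 0.624. Both dyes had been placed where they correlated best with the same other scans, so the procedure favours such a rise.

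The log2 ratio of Cy5 over Cy3 for Tyms moved from -5.59 to -0.61 in amodiaquine replicate 1 and from -5.35 to -0.40 in SP replicate 1. It was 1.11 in amodiaquine replicate 2, where the block was in register (1.15 as deposited), and -0.50 in amodiaquine+SP replicate 2 (0.32 as deposited). These 4 values lay within the middle 95% of all spots of the same file that passed in both dyes. They were larger in size than the ratios of 56.4%, 61.4%, 70.4% and 68.1% of those spots in amodiaquine replicate 1, SP replicate 1, amodiaquine replicate 2 and amodiaquine+SP replicate 2.

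The grid estimate for Tyms Cy5 was not settled in the other files. In SP replicate 2 the Cy5 estimate had a rank correlation of 0.451 and a margin of 0.0232, and the value read was 1703, with a log2 ratio of -4.31. The Cy5 value of 28775 from the first file of the same scan stood in this file 1 row and 1 column off the listed position. The estimate used was 1 row and no column, so 1703 was not read at the spot that held 28775. In amodiaquine+SP replicate 1 the Cy5 rank correlation was 0.463, the foreground 8423 and the log2 ratio -2.88, whereas the second file of this scan gave 30670. These 2 readings listed for 1 spot differ by more than 3-fold, and the reason was not tested.

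For amodiaquine, the only treatment with 2 distinct scans, the Tyms ratio turned by the labels had a mean of -0.86 ± 0.35 (SD, n = 2) on the log2 scale after correction of the grid, with amodiaquine below vehicle in both files. As deposited it was -3.37 ± 3.14 (SD, n = 2). The direction rested on the normalization: with loess fitted within each block in place of the whole array, the ratios of Cy5 over Cy3 were -0.64 and -1.30 and the turned mean was 0.33 ± 1.37. Over 617 spots above background in both dyes in both files, the turned mean had a median size of 0.33 and a 95th percentile of 1.32 with loess over the array, and 0.13 and 0.60 within blocks. The size for Tyms was below the 95th percentile under both normalizations.

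**Figure D2:**
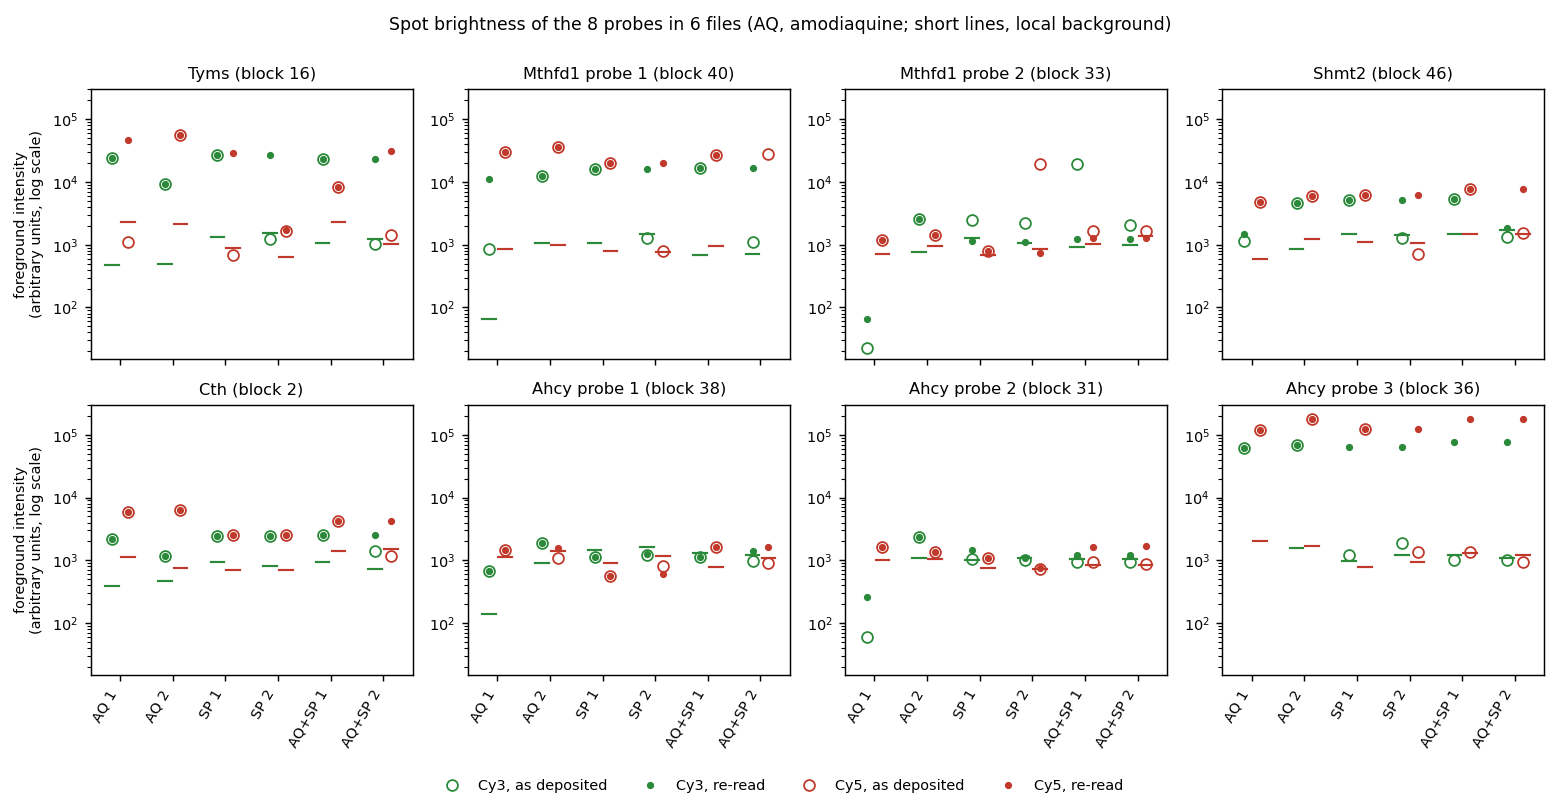
Foreground intensity on a log axis of the 8 probes in the 6 files, for Cy3 (green) and Cy5 (red), at the position as deposited (open circles) and after correction of the grid (dots), with the local background as short lines where it was above 0. Tyms, the first Mthfd1 probe and the third Ahcy probe fall to background at most displaced positions (not in Cy5 of amodiaquine+SP replicate 2 for Mthfd1, at 27792) and return to a like level in nearly every file when read again, while the first and second Ahcy probes stay near background.

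Mthfd1, the cytosolic enzyme of several folate steps, had 1 bright and 1 dim probe. For the first probe, in block 40, the Cy3 foreground after correction was 11141 and 12519 in the amodiaquine files, 15851 in both SP files and 16786 in both amodiaquine+SP files. The Cy5 foreground was 29872 and 36175, 20065 in both SP files and 27315 in amodiaquine+SP replicate 1. In amodiaquine+SP replicate 2 the Cy5 position fell outside the block, so no ratio was taken.

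All 5 ratios of this probe were close to equal. The log2 ratio of Cy5 over Cy3 was -0.01 and 0.14 in the amodiaquine files, -0.10 and -0.07 in the SP files and -0.19 in amodiaquine+SP replicate 1. As deposited, the value was 3.16 in amodiaquine replicate 1, where the Cy3 grid was off by 1 column, and 4.32 in amodiaquine+SP replicate 2. The turned mean for amodiaquine was -0.08 ± 0.10 (SD, n = 2), and -0.08 ± 0.21 with loess within blocks. In amodiaquine+SP replicate 1 loess within the block gave -0.97, the only file in which this probe moved far with the normalization.

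The second Mthfd1 probe, in block 33, was above background in both dyes in 0 of 6 files after correction. As deposited, it read 19125 in Cy5 of SP replicate 2 and 19579 in Cy3 of amodiaquine+SP replicate 1, which gave log2 ratios of 3.48 and -3.78. Read again, the same dyes held 730.9 and 1243, near the local backgrounds of 863.2 and 921.9. The 2 Mthfd1 probes thus disagree on whether the gene was detected, and no ratio is given for the probe in block 33. In that block 4 of 8 dye images lay at the reference position, so its reading near background depends on that choice.

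Shmt2, which moves the carbon unit of serine onto folate in mitochondria, had signal-to-noise ratios between 2.93 and 4.69 in the files that passed. The Cy3 foreground was 4552 in amodiaquine replicate 2, 5085 in both SP files and 5318 in amodiaquine+SP replicate 1. The Cy5 foreground was 5874, 6148 in both SP files and 7691 in both amodiaquine+SP files. The log2 ratios of Cy5 over Cy3 were -0.49 in amodiaquine replicate 2, 0.20 and 0.23 in the SP files and 0.16 in amodiaquine+SP replicate 1, all under 2-fold.

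The remaining 2 files gave no usable Shmt2 ratio. In amodiaquine replicate 1 a Cy3 background of 0 was recorded at this spot, as at 7079 spots of that file, and the Cy3 foreground was 1462. In amodiaquine+SP replicate 2 the Cy3 value of 5318 seen in the first file of the scan was found nowhere in the block, and the position read held 1850, near its background of 1695. The turned amodiaquine mean, which includes the first of these, was 0.46 ± 0.04 (SD, n = 2) with loess over the array and 0.08 ± 0.06 within blocks.

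Cth, the enzyme that releases cysteine from cystathionine, was measured at the deposited position in 5 files. Its Cy3 foreground was 2170 and 1158 in the amodiaquine files, 2472 in both SP files and 2494 in amodiaquine+SP replicate 1 and, read 1 column off, in replicate 2. The Cy5 foreground was 5958 and 6345, 2508 in both SP files and 4201 in both amodiaquine+SP files. Only amodiaquine replicate 1 and amodiaquine+SP replicate 2 passed in both dyes, with log2 ratios of 0.43 and 0.28, since Cy3 signal-to-noise ratios of 1.17 to 1.87 fell short elsewhere.

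At corrected positions Cy5 exceeded Cy3 in all 6 Cth readings after loess. As deposited, amodiaquine+SP replicate 2 gave -0.71. The values with a dye not above background were 1.94 in amodiaquine replicate 2, 0.16 and 0.14 in the SP files and 0.13 in amodiaquine+SP replicate 1. By the labelled dyes, the amodiaquine values of 0.43 and 1.94 point opposite ways when turned. Their turned mean was -0.75 ± 1.67 (SD, n = 2), and 0.08 ± 0.36 within blocks.

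Ahcy, which hydrolyses S-adenosylhomocysteine, had 1 bright probe and 2 near background. For the third probe, in block 36, Cy3 was 61940 and 67996 in the amodiaquine files, 63526 in both SP files and 76731 in both amodiaquine+SP files after correction. Cy5 was 118165 and 175969, 122043 in both SP files and 176821 in both amodiaquine+SP files. As deposited, SP replicate 2 and both amodiaquine+SP files read a spot at background in both dyes, and SP replicate 1 set a Cy3 value of 1203 against the Cy5 value of 122043.

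That mismatch gave a log2 ratio of 7.08 in SP replicate 1, the largest of all 48 readings, and 0.23 after correction. The Cy3 estimate there was not settled (rank correlation 0.43), but the value of 63526 was the same in the second SP file, whose estimate was, and whose ratio was 0.17. In amodiaquine replicate 2 the ratio was -0.67, and 0.07 within blocks. The amodiaquine+SP files gave -0.69 and -0.10 from the same pair of foreground values, and 0.01 and -0.03 with plain background subtraction. The 2 files differ there in local background and in the loess fit. In amodiaquine replicate 1 the Cy5 displacement was unsettled and the Cy3 background was 0, and loess over the array gave -0.76 against 2.27 within blocks.

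The first and second Ahcy probes, in blocks 38 and 31, were above background in both dyes in 0 of 6 files, as deposited and after correction. They too disagree with the Ahcy probe in block 36 on detection. The reference position was held by 7 of 8 dye images in block 38, 4 in block 31 and 5 in block 36. Corrected readings in blocks 31 and 36 therefore depend on that choice.

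**Figure D3:**
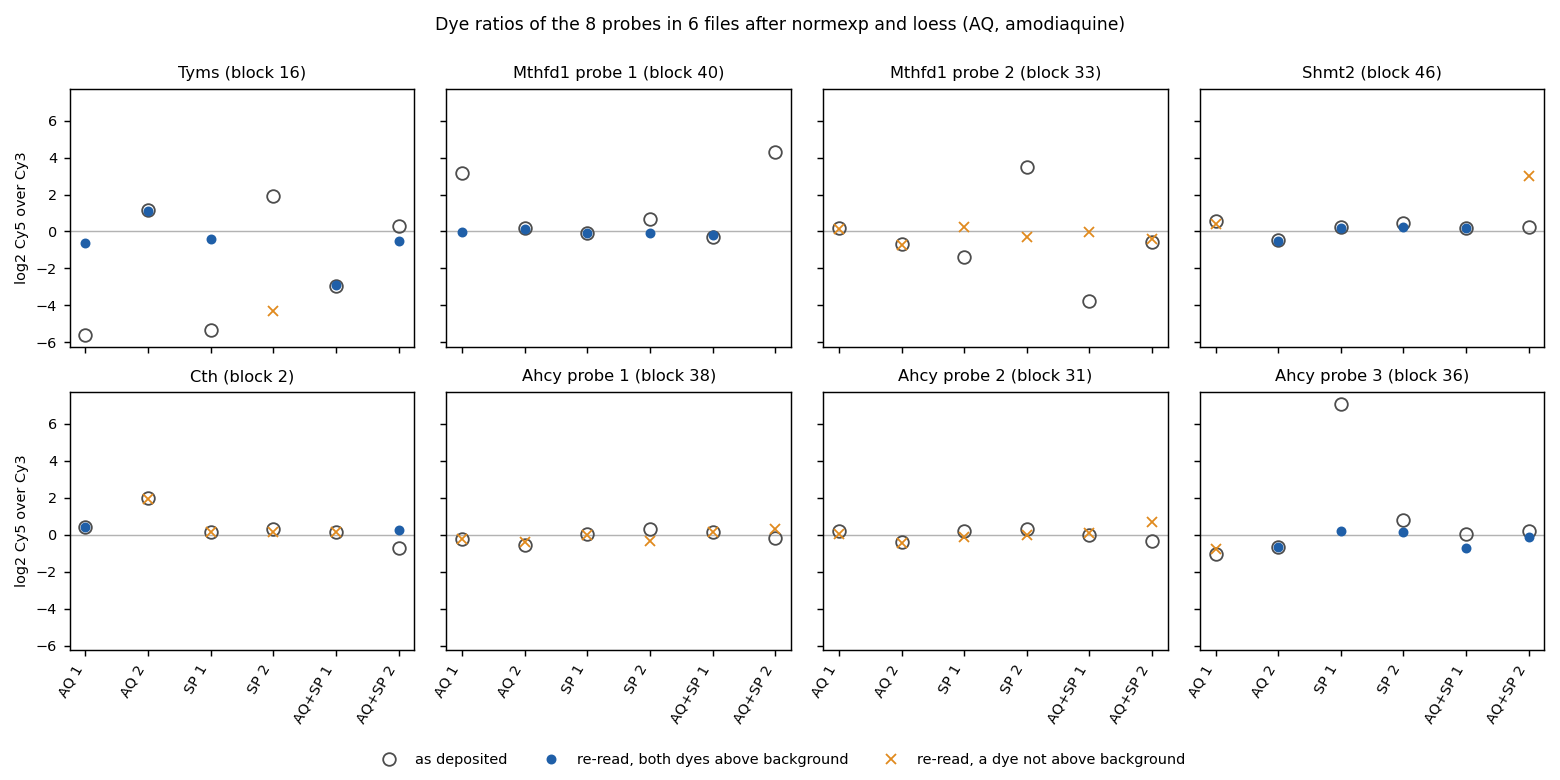
Log2 ratio of Cy5 over Cy3 of each probe in the 6 files, at the position as deposited (open circles) and after correction of the grid, with both dyes above background (blue dots) or not (orange crosses). Open circles as far out as -5.59 (Tyms, amodiaquine replicate 1) and 7.08 (the third Ahcy probe, SP replicate 1) have blue dots near 0, and Tyms in amodiaquine+SP replicate 1 at -2.88 is the blue dot farthest from 0.

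All spots of the same file give the background for these sizes. The share of spots above background in both dyes with a ratio of 2-fold or more in either direction was 21.9% and 33.4% in the amodiaquine files, 6.29% and 6.51% in the SP files and 7.7% and 9.23% in the amodiaquine+SP files. Among members with settled readings above background in both dyes, those past that size were 0 of 3 and 1 of 4 (Tyms) for amodiaquine. They were 0 of 3 in each SP file and 0 of 3 in each amodiaquine+SP file. With loess within blocks the count over all files was again 1 of 19, Tyms in amodiaquine replicate 2, with the opposite sign at -1.30.

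**Figure D4:**
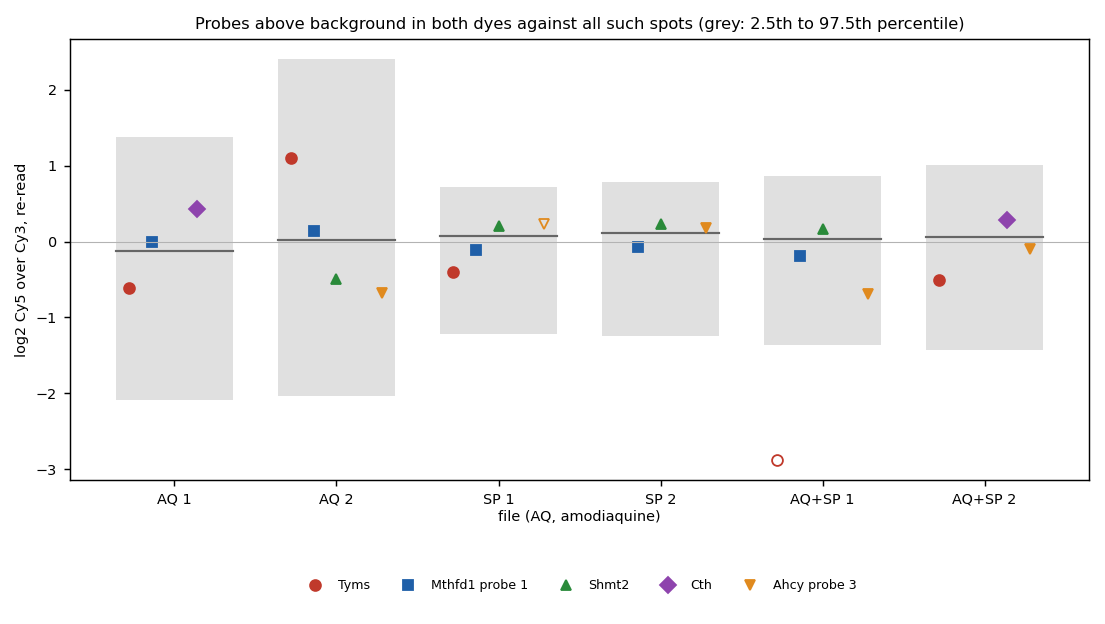
Log2 ratio of Cy5 over Cy3 after correction of the grid for the 5 probes above background in both dyes, against the middle 95% (grey) and the median (line) of all such spots in each file. Filled symbols have a settled displacement in both dyes, and of all symbols the open one of Tyms in amodiaquine+SP replicate 1 at -2.88 is outside the grey range.

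Between SP and amodiaquine+SP the members could be set side by side only as dye ratios of single scans. In SP replicate 1 and amodiaquine+SP replicate 1, the first Mthfd1 probe had -0.10 and -0.19, Shmt2 0.20 and 0.16, and the third Ahcy probe 0.23 and -0.69. Over 1444 spots above background in both scans the difference had a median size of 0.26 and a 95th percentile of 0.85. The Ahcy difference exceeded this percentile in these files, but the second files of the same scans, with identical foreground values, gave 0.17 and -0.10. Background subtraction gave 0.22 and 0.01 in the first files, and loess within blocks 0.11 and -0.58. For each of these treatments there is 1 scan, so the differences have no replicate.

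The fit over all 6 files was set up to ask whether any treatment differed from vehicle. It used the positions as deposited, with each treatment coded by the labelled dye. For SP and amodiaquine+SP it could not answer this, since each was 1 scan entered 2 times with opposite coding. Their coefficients measure how the 2 files of a scan differ, and the absence of calls says nothing about these drugs. Of the 8 member probes 6 passed the filter (a signal-to-noise ratio of 2 or higher in either dye, in 3 files or more), and the first and second Ahcy probes did not. None of these 6 was called by limma at an adjusted p under 0.05, against 0.0226% of 4426 probes for amodiaquine and 0% for both SP and amodiaquine+SP. Before adjustment, limma p was under 0.05 for 281, 244 and 164 probes over the array, with 1 member probe for each treatment: Tyms for amodiaquine and for SP, and the first Mthfd1 probe for amodiaquine+SP.

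After correction of the grid, with loess over the array, none of these remained. The Tyms coefficient for amodiaquine was -3.37 ± 0.74 (SE, limma adjusted p = 0.495) as deposited and -0.86 ± 0.98 (adjusted p = 0.941) after correction. For SP, as coded, it was -3.63 ± 0.74 (adjusted p = 0.744), and after correction 1.96 ± 0.98 in the opposite direction. That corrected SP value comes from the unsettled Cy5 reading of 1703 in replicate 2, since 2 files of 1 scan with opposite coding cancel wherever both read the same spot. The first Mthfd1 probe moved from -2.31 ± 0.86 to -0.18 ± 0.80 for amodiaquine+SP as coded, where 1 file remained, and the third Ahcy probe from 3.15 ± 1.55 to 0.03 ± 0.54 for SP. Shmt2 moved away from equal for amodiaquine+SP as coded, from -0.02 ± 0.70 to -1.42 ± 0.71, through its dim Cy3 reading in replicate 2. With loess over the array, none of the 5 probes tested after correction had an unadjusted limma p under 0.05. Tyms had an unadjusted limma p of 0.0178 for SP with loess within blocks and of 0.0456 for amodiaquine+SP with 1 file per scan, and both rest on the unsettled Cy5 readings. At corrected positions 0 of 3594 to 3598 probes were called over the array.

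The authors' processed values stand at the deposited positions. As Cy5 over Cy3, the authors' deposited log2 ratios for Tyms were -8.40 in amodiaquine replicate 1, 1.10 in amodiaquine replicate 2, -7.21 in SP replicate 1 and -2.49 in amodiaquine+SP replicate 1. The third Ahcy probe had 10.93 in SP replicate 1 and 1.32 in SP replicate 2 in the authors' deposited table. At the displaced positions of amodiaquine replicate 1 and of both SP files these sizes were larger than after normexp.

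Of 51 other genes listed for folate and one-carbon metabolism, 31 had probes (52 in all), and the rest are not analysed here. The signal filter passed 6 probes of 6 genes: Dld, Fpgs, Gclc, Gldc, Pemt and Sardh. As deposited, limma called 0 of these 6 for each treatment, with 3 above and 3 below 0 each time. Their median log2 coefficients were -0.01 for amodiaquine, -0.05 for SP and 0.07 for amodiaquine+SP as coded, beside -0.11, -0.05 and 0.01 over all 4426 probes.

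Fpgs, Gclm, Gldc and Sardh each had a probe that was in register and passed in both dyes in at least 1 file. Sardh, the sarcosine dehydrogenase gene, had log2 ratios of Cy5 over Cy3 after correction of 0.08 and 0.19 in the SP files and 0.36 and 0.52 in the amodiaquine+SP files. Gldc, of the glycine cleavage system, had -0.13 in amodiaquine replicate 2, 0.38 in SP replicate 2, and 0.47 and 0.14 in the amodiaquine+SP files. Fpgs, which adds glutamates to folate to keep it in the cell, had -0.02 in amodiaquine replicate 2 and 0.45 and 0.13 in the amodiaquine+SP files, and Gclm, a glutathione synthesis gene, had -0.21 in amodiaquine replicate 2. Among corrected readings that passed in both dyes, none of these 4 genes had a ratio of 2-fold or more in any file. The ratios given are with loess over the array, and signs could change with the normalization. With loess within blocks, amodiaquine replicate 2 gave 0.77 for Gldc, 0.23 for Fpgs and 0.01 for Gclm.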

How the data were processed

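The scanner files, made with ImageQuant version 5.0 and ArrayVision version 8.0 per the series' design text, hold deposited foreground and background intensity per spot and dye, with no normalization by the authors. A deposited ratio of signal to noise stands beside them. The authors' processed values are deposited log2 ratios, LOWESS-normalized with Avadis version 4 per the design text of the series, with unstated centring. They were turned back to Cy5 over Cy3 by the labelled dye.

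Each file has 48 blocks of 20 rows and 24 columns (480 spots). Names follow blocks reordered relative to the probe numbers, an order that earlier work on these data chose after seeing brightness. With it, the brightness rank of 8652 probes sharing an accession correlated with that of their partners at r = 0.14 across probes, against 0.01 by spot number. As the order was chosen after seeing brightness, this weak correlation is not independent support for the names. The platform table named 1 gene for 15114 probes, several for 206 and none for 7720, and 8991 of 9107 genes matched RefSeq (GRCm38.p6), used for symbols only. The probes' genome build was not given in the sources used here.

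Members, lists and tests were chosen with earlier results of these data known. The rule for named genes was every platform probe of the 5 genes and, of the other listed genes, those with a probe in register that passed in both dyes in 1 file or more.

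Displacements of up to 4 rows or columns were compared by Spearman rank correlation of foreground with the other scans, in Python 3.11.15. An estimate was settled at a correlation of at least 0.5 and a margin of at least 0.1. A block was in register where both dyes stood in place and correlated with each other at 0.5 or more. In place means at the commonest position among 8 dye images of the block, which is not a known grid position. That position was held by 4 of 8 images in blocks 31 and 33 and by 5 in block 36. For the member probes there, the corrected spot depends on this choice. Of 192 block images of the repeated scans, 191 had displacements that differed by the offset of identical values. Background was corrected with normexp (offset 50), each file was normalized by loess over all spots, and limma 3.58.1 under R 4.3.3 fitted a coefficient per treatment and a dye term over the 6 files (2 residual degrees of freedom, which rest on the repeated files). The steps were tested on simulated data. The 58 spots of SP replicate 1 without a Cy5 background were left out. Probe levels were not compared between probes, and 6 files of 4 scans limit the precision of every value.

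Alternatives were background subtraction (floor 1), loess within blocks, no signal filter, the authors' values, an intensity trend and robust prior, names by spot number, blocks in register only, corrected positions, 1 file per scan, and leaving out each file.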

Additional observations from a re-analysis of the deposited data

How the results depend on the processing

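Where limma could test a member probe, none was called for any treatment under any alternative run. Not every member was tested in each run. In blocks in register only Cth had a p among the members, since too few files were left for the others. Tyms had none with the authors' deposited log2 ratios. The absence of calls says nothing about the untested members there. The count of called probes for amodiaquine was 1, and 0 with background subtracted, with loess within blocks, with no filter on dim probes, with the authors' deposited log2 ratios, at corrected positions (with either loess or with 1 file per scan) and with 1 file per scan. It was 6 with an intensity trend and robust prior, 15 of the 270 probes in blocks in register, 1 with the filter that ignores a background of 0, and 0 to 0 on leaving out each file. For amodiaquine+SP the count was 1 in blocks in register and 0 otherwise, and for SP 0 throughout. The cause was not tested. For SP and amodiaquine+SP, fits that use both files of 1 scan do not measure a drug effect. The alternatives that join corrected positions with another setting, and the filter without a background of 0, were chosen after seeing the data.

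In 48 of 303 alternatives the fitted log2 value of a member changed sign, all without a call and with the cause not tested. For SP and amodiaquine+SP, leaving out 1 file or the other keeps the same scan under opposite coding. Names by spot number put another spot under the gene's name. Sign changes in these settings are therefore not a spread of drug estimates. For SP, the third Ahcy probe moved from 3.15 to -0.002 with names by spot number, and ranged from -1.14 (without SP replicate 1) to 7.43 (without SP replicate 2) on leaving out a file. For amodiaquine, the third Ahcy probe moved from -0.19 to 0.005 with background subtracted, 1.10 with loess within blocks and at corrected positions with loess within blocks, 1.64 with names by spot number, and ranged from -3.04 (without amodiaquine replicate 2) to 2.66 (without amodiaquine replicate 1) on leaving out a file. For amodiaquine+SP, the third Ahcy probe moved from -0.08 to 1.23 with background subtracted, 0.043 with 1 file per scan, and ranged from -1.51 (without amodiaquine+SP replicate 2) to 1.36 (without amodiaquine+SP replicate 1) on leaving out a file. For SP, Cth moved from -0.06 to 0.044 with background subtracted, 0.007 with loess within blocks and at corrected positions with loess within blocks, 0.035 with the authors' deposited log2 ratios, 0.010 at corrected positions, 0.18 with 1 file per scan, 0.16 at corrected positions with 1 file per scan, and ranged from -0.28 (without SP replicate 2) to 0.15 (without SP replicate 1) on leaving out a file. For amodiaquine, Cth moved from -0.79 to 0.079 with loess within blocks and at corrected positions with loess within blocks, and ranged from -2.01 (without amodiaquine replicate 1) to 0.44 (without amodiaquine replicate 2) on leaving out a file. For amodiaquine+SP, Cth moved from 0.42 to -0.031 with the authors' deposited log2 ratios, -0.58 in blocks in register, -0.075 at corrected positions, -0.057 at corrected positions with loess within blocks, -1.59 with names by spot number, and ranged from -0.58 (without amodiaquine+SP replicate 2) to 1.43 (without amodiaquine+SP replicate 1) on leaving out a file. For SP, the first Mthfd1 probe had -0.38 and ranged from -1.94 (without SP replicate 2) to 1.19 (without SP replicate 1) on leaving out a file. For amodiaquine, the first Mthfd1 probe moved from 1.49 to -0.19 in blocks in register, -0.076 at corrected positions and at corrected positions with 1 file per scan, -0.083 at corrected positions with loess within blocks. For amodiaquine+SP, the second Mthfd1 probe had -1.60 and ranged from -4.17 (without amodiaquine+SP replicate 2) to 0.98 (without amodiaquine+SP replicate 1) on leaving out a file. For SP, Shmt2 moved from -0.12 to 0.22 in blocks in register and with 1 file per scan, 0.20 at corrected positions with 1 file per scan, 0.045 with names by spot number, and ranged from -0.32 (without SP replicate 1) to 0.083 (without SP replicate 2) on leaving out a file. For amodiaquine+SP, Shmt2 moved from -0.02 to 0.062 with loess within blocks, 0.17 in blocks in register and with 1 file per scan and at corrected positions with 1 file per scan, 2.07 with names by spot number. For SP, Tyms moved from -3.63 to 1.96 at corrected positions, 1.97 at corrected positions with loess within blocks. For amodiaquine, Tyms moved from -3.37 to 0.33 at corrected positions with loess within blocks, 0.11 with names by spot number. For amodiaquine+SP, Tyms moved from -1.63 to 1.16 with the authors' deposited log2 ratios.

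Of 227 values of single files under an alternative, 82 moved by more than the SD of the 2 amodiaquine files. This SD is of the deposited Cy5 over Cy3 ratios of the probe before turning. With exchanged dyes it also holds any treatment difference, unlike the SD of turned values given above. No paired analysis was possible because the labels give replicates no number shared between treatments. The signal over background limits Cth, Shmt2, the second Mthfd1 probe and both dim Ahcy probes, and the single scan per antifolate treatment limits every SP value.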

Other observations

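The genes whose ratios over the 6 files were most like those of each member at the deposited positions were drawn from other blocks, with Pearson's r given as a description over 6 files that share 4 scans. For Tyms these were the ribosomal protein genes Rps2 (r = 0.99) and Rpl5 (r = 0.97), among 38 of 2389 genes at 0.9 or above. For the first Mthfd1 probe they were Hypk (r = 0.99) and Dpysl5 (r = 0.98), and for the second Znhit3 (r = 0.99) and Adhfe1 (r = 0.98). Shmt2 was matched by Dhx36 (r = 0.998) and Asap3 (r = 0.98), Cth by Lsm4 and Timm8a2 (r = 0.997 and 0.995, among 126 genes at 0.9 or above), and the third Ahcy probe by Sarnp (r = 0.99) and Gm10250 (r = 0.99). Displaced readings of the members enter these values.

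The repeated scans gave each member's ratio from 2 files of 1 scan. Over spots above background in both dyes in both files of a scan, the ratios of the 2 files differed by a median size of 0.04 for SP (1311 spots) and 0.21 for amodiaquine+SP (1459 spots) after correction. Cth, at the same position in both SP files, had identical foreground values there, with ratios of 0.16 and 0.14. The third Ahcy probe, also with identical foreground values in both amodiaquine+SP files, had -0.69 and -0.10, a gap beyond the 95th percentile of 0.56 for that pair.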
